A study of Caenorhabditis elegans with 2 samples.

Results

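The genes described here are the cuticle collagens of Caenorhabditis elegans, and the measurements are intervals of chromatin recovered with CEH-16, the engrailed-class homeodomain factor. Members were the protein-coding genes of the WBcel235 annotation with a symbol of the form col- plus a number, or one of the dpy, sqt, rol, bli and lon symbols known to encode cuticle collagens. The rule found 176 genes of 19973. Of these, 6 were furrow collagens (dpy-2, dpy-3, dpy-7, dpy-8, dpy-9 and dpy-10), 5 were other dpy collagens, 9 carried sqt, rol, bli or lon names, and 156 were numbered col genes.

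Larvae of the L2 stage, both sexes together and of unstated age, were used whole. The animals were of strain OP82, with the genotype unc-119(tm4063) III; wgIs82, where wgIs82 is the insertion that carries ceh-16 as an eGFP fusion. There was 1 group with 2 biological replicates and no other stage, factor or genotype, and both replicates carry the same allele and the same insertion. A control library is named in the labels, and it was not analysed here. Whole animals were used, so a signal cannot be placed in a cell type, and a site bound in few cells cannot be told apart from a site bound weakly in many.

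The cuticle is a collagen-rich extracellular matrix that the epidermis secretes anew at each moult, and the collagen genes are switched on in waves within each moulting cycle. Furrow collagens form the circumferential annular furrows, and loss of any of them gives short, fat (dumpy) animals. CEH-16 acts in the lateral seam cells of the epidermis, where GATA factors are also active. Collagen chains are rich in glycine and proline, whose codons start with GG and CC.

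The deposited lists give for each interval a signal on the scale of the authors' peak caller, and values of different lists are set side by side here without a common scale. The list of peaks that passed the irreproducible discovery rate (IDR), a comparison of ranks between replicates, held 1358 intervals with signals of 23.2 to 190. The relaxed lists, made to hold weak and background intervals too, had 30000 intervals in the pooled list (median signal 6.05), 28214 in replicate 1 (median 3.79) and 30000 in replicate 2 (median 3.502). A gene was given an interval when its summit lay within 1000 bp of the 5′ end of any annotated transcript of the gene, so 1 interval may count for several genes. Because trans-splicing is common in the worm, an annotated 5′ end is often not the site of initiation. Distances are negative upstream and positive downstream of that end, and positions are 1-based on ce11. With 1 group there is no contrast to test, so the values below carry no p-values, and shares carry 95% Wilson intervals that cover counting error only.

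Collagen genes carried IDR peaks about as often as protein-coding genes in general. An IDR summit lay within 1000 bp of 9 of 176 collagen genes (5.11%, 2.71 to 9.43%), against 946 of all protein-coding genes (4.74%). Counting a summit only for the gene with the nearest 5′ end left 7 (3.98%, against 3.53%). The 9 were dpy-3, col-3, col-10, col-38, col-42, col-103, col-107, col-117 and col-172. Their median strongest IDR signal was 28.8, against 33.8 over all genes with an IDR peak. They rested on 10 distinct peaks, since col-10 and col-42 had 2 each and col-3 and col-117 shared 1. All 10 overlapped an interval in both replicate lists, and 9 of them did so over at least 50% of the peak in both.

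The peak of col-38, a numbered cuticle collagen, had the highest signal of the 10, at chrII:8569371-8569666 and 431 bp upstream. Its signal was 40.2 in the IDR list and 44.5 in the pooled list, and the overlapping intervals had 14.1 in replicate 1 and 26.6 in replicate 2. The ribosomal protein gene rpl-5 had the nearer 5′ end, at 408 bp from the summit, and 3 noncoding RNA genes lay within 500 bp. This was therefore the highest collagen signal but not an exclusive position.

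The peak of dpy-3, a furrow collagen, lay at chrX:2145713-2146008, 214 bp upstream, with no other protein-coding 5′ end within 1000 bp. Its signal was 37.3 in the IDR list and 39.03 in the pooled list. The replicates were close, with 19.6 in replicate 1 and 18.6 in replicate 2. The summit window is printed because it held more of the searched words than any other collagen IDR window.

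The peaks of col-172 and col-107, both numbered collagens, were also of like height in the replicates. For col-172 the peak at chrX:6671760-6672055 lay 911 bp upstream, with an IDR signal of 36.4, a pooled signal of 34.8, and 16.7 in replicate 1 and 17.9 in replicate 2. For col-107 the peak at chrIV:1548466-1548761 lay 107 bp upstream, inside an intron of C34H4.5, with an IDR signal of 33.6, a pooled signal of 33.7, and 15.3 in replicate 1 and 19.2 in replicate 2. A separate interval in the coding exon of col-107, 659 bp downstream, reached 19.98 in replicate 1, while the replicate 2 interval there (674 bp downstream) had 7.01.

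The col-10 promoter, widely used in worms to drive epidermal expression, held a pair of IDR peaks whose replicates favoured different summits. The nearer peak, chrV:9165313-9165608 at 154 bp upstream, had an IDR signal of 28.8 and a pooled signal of 27.6. The farther peak, chrV:9165517-9165812 at 358 bp upstream, had 23.3 in the IDR list and 20.5 in the pooled list. In replicate 1 the nearer position had a signal of 28.9 and the farther one 2.74, and in replicate 2 the 1 interval over these peaks had its summit 354 bp upstream and a signal of 16.3.

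Of the peaks with lower signal, that of col-103 lay 205 bp upstream at chrIV:763735-764030, with an IDR signal of 24.8, a pooled signal of 24.9, and 9 in replicate 1 and 9.65 in replicate 2. The strongest replicate 1 interval at col-103 was instead in its coding exon, 772 bp downstream, with a signal of 17.9. The divergent neighbours col-3 and col-117 shared the peak at chrIV:8824354-8824649, which lay 281 bp upstream of col-3 and 307 bp upstream of col-117. That shared peak had an IDR signal of 24.7 and a pooled signal of 29.3, and differed more between replicates, with 7.76 in replicate 1 and 21.9 in replicate 2.

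The gene col-42 was the exception in position, because both of its IDR summits lay in its own coding sequence. The peak at chrV:18638438-18638733, 102 bp downstream, had an IDR signal of 23.2, a pooled signal of 25.7, and 22.96 in replicate 1 and 8.46 in replicate 2. The peak at chrV:18638873-18639168, 537 bp downstream, had an IDR signal of 24.2, a pooled signal of 23.7, and 8.46 in replicate 1 and 11.4 in replicate 2. Its strongest replicate intervals were upstream and belonged to neither peak, with 23.3 in replicate 1 at 731 bp upstream and 13.3 in replicate 2 at 410 bp upstream. A pooled interval 742 bp upstream had 18.6. Over the whole genome, 26 IDR summits lay in the coding sequence of a protein-coding gene, so col-42 held 2 of them (1 of 176 collagen genes, against 0.125% of all genes). The bases of the peak at 537 bp were 63.9% G and C, against a median of 42.6% over all IDR peaks.

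Windows of 201 bases around the summits show what kind of sequence these peaks cover, with the homeodomain core and the GATA words in capitals. They are read from the RefSeq genome of the same build and printed on the strand of the collagen gene. The core was searched as TAATTA or TAATTG or CAATTA and the GATA words as AGATAA or TGATAA, both on either strand, so TTATCT and TTATCA are GATA words read from the other strand. The dpy-3 window is chrX:2145761-2145961 (minus strand), that of col-10 chrV:9165361-9165561 (minus), that of col-107 chrIV:1548514-1548714 (plus), that of col-172 chrX:6671808-6672008 (plus) and that of col-42 at 537 bp chrV:18638921-18639121 (plus). The last is shown for contrast, as coding sequence with none of the words.
dpy-3: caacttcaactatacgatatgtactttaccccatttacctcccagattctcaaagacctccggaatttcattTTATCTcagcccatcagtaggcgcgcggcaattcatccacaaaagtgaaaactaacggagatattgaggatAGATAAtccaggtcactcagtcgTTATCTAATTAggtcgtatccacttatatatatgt
col-10: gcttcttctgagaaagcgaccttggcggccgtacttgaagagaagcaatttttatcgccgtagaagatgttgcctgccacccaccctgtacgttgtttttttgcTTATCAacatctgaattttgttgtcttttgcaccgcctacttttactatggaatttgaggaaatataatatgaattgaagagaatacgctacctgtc
col-107: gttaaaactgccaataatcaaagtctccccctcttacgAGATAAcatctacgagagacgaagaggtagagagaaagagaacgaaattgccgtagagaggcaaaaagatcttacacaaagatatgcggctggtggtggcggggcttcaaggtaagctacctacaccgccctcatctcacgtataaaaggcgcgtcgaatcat
col-172: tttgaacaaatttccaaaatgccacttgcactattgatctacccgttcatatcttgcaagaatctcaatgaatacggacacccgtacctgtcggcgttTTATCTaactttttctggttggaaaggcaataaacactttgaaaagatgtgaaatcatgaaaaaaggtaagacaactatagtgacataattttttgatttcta
col-42: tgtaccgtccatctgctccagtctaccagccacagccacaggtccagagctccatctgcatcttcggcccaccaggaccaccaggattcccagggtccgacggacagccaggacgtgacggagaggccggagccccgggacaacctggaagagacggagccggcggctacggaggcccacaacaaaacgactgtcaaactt

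In the dpy-3 window 3 GATA words and 1 core were found, and 1 GATA word overlapped the core by 1 base. No core was found in the other 9 collagen IDR windows, so 1 of 10 held one (10%, 1.79 to 40.4%). GATA words were in 5 of 10 windows (50%, 23.7 to 76.3%), those of dpy-3, col-10 at 154 bp, col-107, col-172 and the one shared by col-3 and col-117. Among the 755 IDR peaks within 1000 bp of any protein-coding gene, 14.3% held a core and 21.2% a GATA word. For GATA words this share lay just below the interval of the 10 collagen windows, while the 26.2% of all 1358 IDR peaks lay inside it. Of the 8 upstream collagen windows 5 held a GATA word (62.5%, 30.6 to 86.3%), against 21.1% of 658 upstream IDR windows of all genes. These differences were not tested. A match of 6 letters describes the window and does not show a bound site.

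In the pooled list, a summit lay within 1000 bp of 125 of 176 collagen genes (71.0%, 63.9 to 77.2%), against 52.8% of all protein-coding genes. The replicate lists gave 113 collagen genes (64.2%), against 50.9% of all genes, in replicate 1, and 105 (59.7%, 52.3 to 66.6%), against 53.0%, in replicate 2. The strongest signal per gene was similar to that of genes in general. Its median was 7.61 at collagen genes with a pooled interval and 7.23 at all such genes, with 4.999 and 4.55 in replicate 1 and 4.14 and 4.16 in replicate 2. The share of all genes lay below the collagen interval in the pooled list and in replicate 1 (56.9 to 70.9%), and inside it in replicate 2 and in the IDR list.

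The difference lay downstream of the 5′ ends. Upstream summits were found at 70 collagen genes in the pooled list (39.8%), against 37.3% of all protein-coding genes. Upstream shares were 31.8% against 34.7% in replicate 1 and 37.5% against 37% in replicate 2. Downstream summits were found at 93 collagen genes in the pooled list (52.8%), against 30.1% of all genes, at 86 (48.9%), against 28.3%, in replicate 1, and at 69 (39.2%), against 29.8%, in replicate 2. Replicate 2 thus had the smaller downstream difference. In the IDR list 8 collagen genes had an upstream peak (4.55%, against 4.19%) and 1, col-42, a downstream peak (0.568%, against 0.686%).

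**Figure D1:**
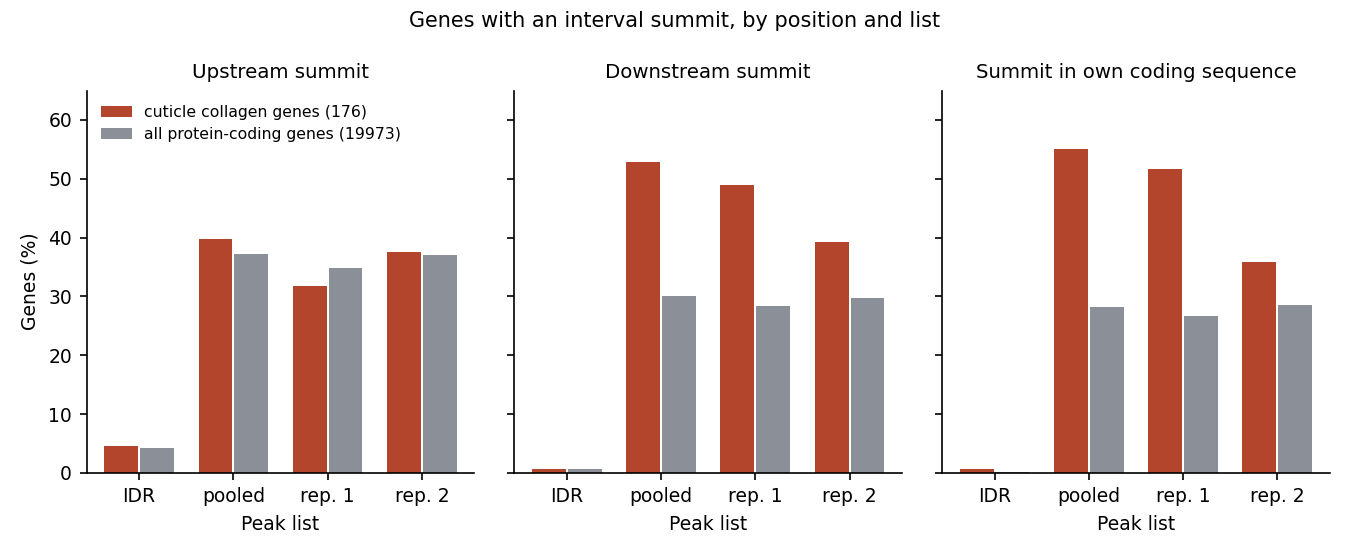
Percent of cuticle collagen genes (red, 176) and of all protein-coding genes (grey, 19973) with a summit upstream within 1000 bp of a 5′ end, downstream within 1000 bp, or in their own coding sequence, in each list. The bars differ little upstream (39.8% against 37.3% in the pooled list) and more in coding sequence (55.1% against 28.1% in the pooled list, 35.8% against 28.6% in replicate 2).

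Counted as summits instead of genes, 107 of the 187 pairs of a collagen gene and a pooled summit were downstream (57.2%), against 43.6% of pairs over all protein-coding genes. The replicate lists gave 62.2% against 43.7% in replicate 1 and 50.3% against 43.7% in replicate 2. With a window of 500 bp the pooled shares were 43.7% at collagen genes and 40.8% at all genes, so the gap was small within 500 bp. Among pooled ranks 1 to 2000, 4 of 18 collagen pairs were downstream (22.2%, against 14.2%). Among ranks 2001 to 10000 the share was 59.0% of 61 pairs, against 38.2%, and among ranks 10001 to 30000 it was 62.0% of 108 pairs, against 50.6%. The first of these bins holds fewer than 20 collagen pairs.

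**Figure D2:**
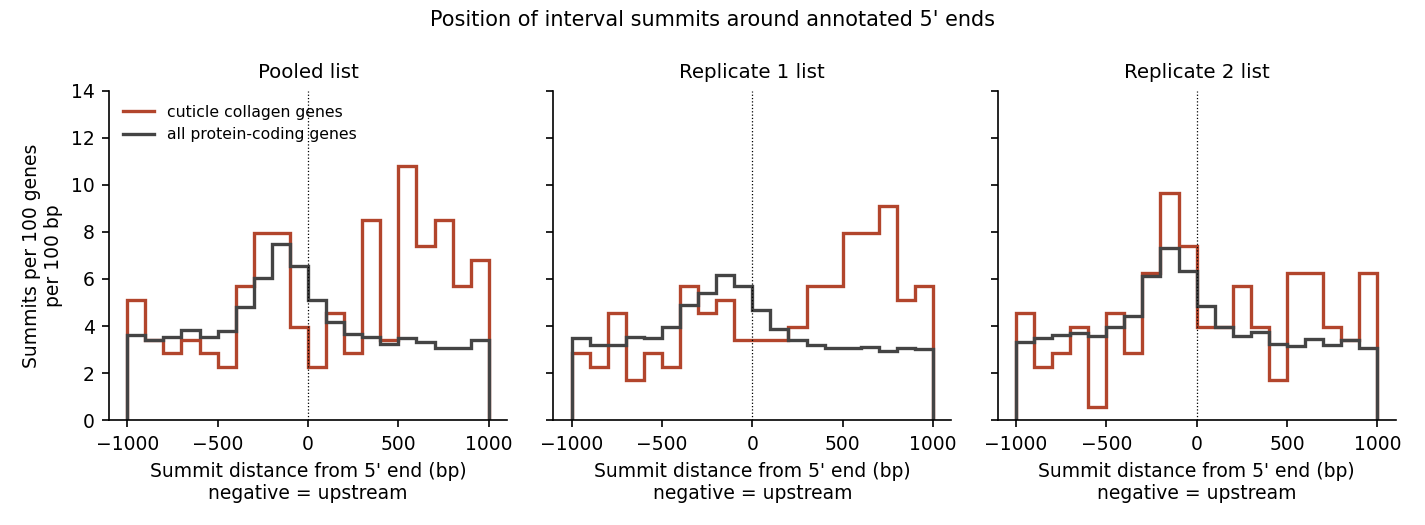
Summits per 100 genes in bins of 100 bp from 1000 bp upstream to 1000 bp downstream of annotated 5′ ends, for cuticle collagen genes (red) and all protein-coding genes (dark grey) in the relaxed lists. Both lines have a hump upstream of the 5′ end, and the collagen line stays above the other over most of the downstream 500 to 1000 bp.

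Most downstream summits were in exons. Of the 187 pooled pairs, 93 had the summit in a coding exon of the collagen gene itself (49.7%), 78 upstream of the gene (41.7%), 11 in an intron, 4 in an untranslated region and 1 beyond the 3′ end. At any distance from the 5′ end, 97 collagen genes had a pooled summit in their own coding sequence (55.1%, 47.7 to 62.3%), against 28.1% of all protein-coding genes. The counts were 91 (51.7%), against 26.6%, in replicate 1 and 63 (35.8%), against 28.6%, in replicate 2. Per 100 kb of coding sequence, collagen genes had 66.5 pooled summits and all genes 29.99, with 64.2 against 27.8 in replicate 1 and 45.1 against 30.4 in replicate 2. Collagen genes therefore exceeded the other genes in coding summits in each relaxed list, by a wide margin in replicate 1 and a narrow one in replicate 2.

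Base composition differed with this position, and gene shape differed between collagens and other genes. Collagen coding sequences had a median G and C content of 54.9%, against 42.5% for all protein-coding genes, at a median coding length of 912 bp against 990 bp. Pooled intervals downstream of collagen 5′ ends had a median G and C content of 55.1%, against 38.5% at all genes, and those upstream had 39.9%, against 36.8%. Collagen genes were shorter, with a median length of 1220 bp against 2027 bp, and more often had a single annotated 5′ end (86.9% against 73.7%). The part of composition, gene length or the number of 5′ ends in the coding summits was not tested. Collagens are a gene family, and the part of repeated sequence was likewise not tested. At least 90% of the 31-base words of the interval occurred once in the genome in 93.6% of the pooled collagen pairs, against 95.5% over all genes, in 90.2% against 95.3% in replicate 1, and in 95.6% against 96.0% in replicate 2. With only such pooled intervals, 91 collagen genes had a coding summit (51.7%), against 27.6% of all genes.

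**Figure D3:**
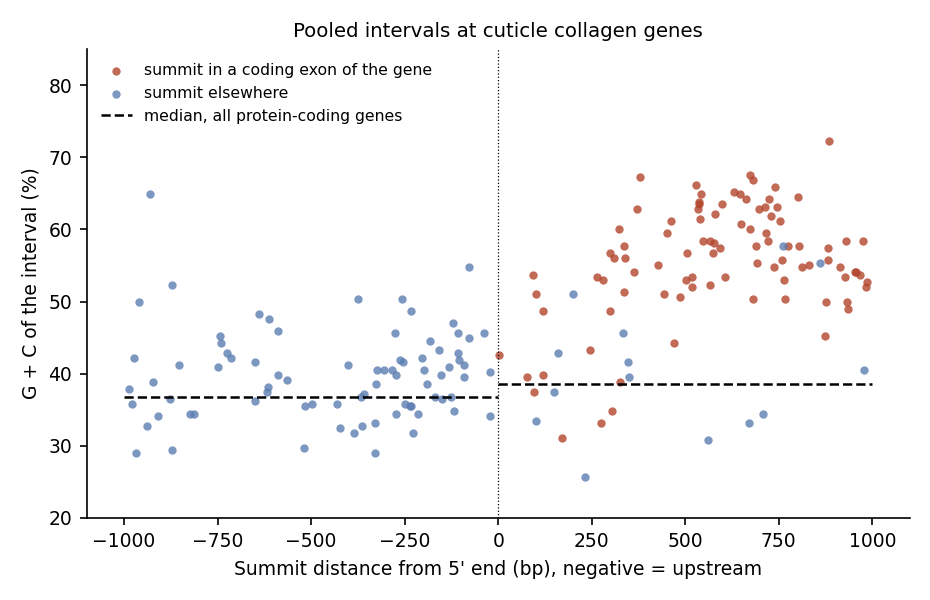
G and C content of each pooled interval at a cuticle collagen gene against the distance of its summit from the 5′ end, with summits in a coding exon of the gene in red and all others in blue. The red points lie mostly above the dashed median of all protein-coding genes downstream (38.5%). The upstream points (median 39.9%) lie on both sides of their dashed median (36.8%), more often above it.

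All 6 furrow genes had a pooled interval and 1 of 6, dpy-3, had an IDR peak. Among the 170 other collagens, 119 had a pooled interval (70.0%) and 8 an IDR peak (4.71%). The median strongest pooled signal was 14.1 at furrow genes (4.07 to 39.03) and 7.42 at the other collagens with an interval. It was 7.47 against 4.96 in replicate 1, where all 6 furrow genes had an interval, and 4.89 against 4.09 in replicate 2, where 5 of 6 had one. In each relaxed list the range of the furrow genes lay within that of the other collagens. A pooled summit lay upstream at 6 of 6 furrow genes and at 64 of the 170 other collagens (37.6%). Among those others were 7 of the 9 sqt, rol, bli and lon genes (77.8%) and 1 of the 5 other dpy genes. An upstream summit was found at 4 of 6 furrow genes in each replicate list, against 30.6% of the other collagens in replicate 1 and 36.5% in replicate 2. With 6 genes the Wilson interval of a full share begins at 61.0%, and the difference between the classes was not tested.

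**Figure D4:**
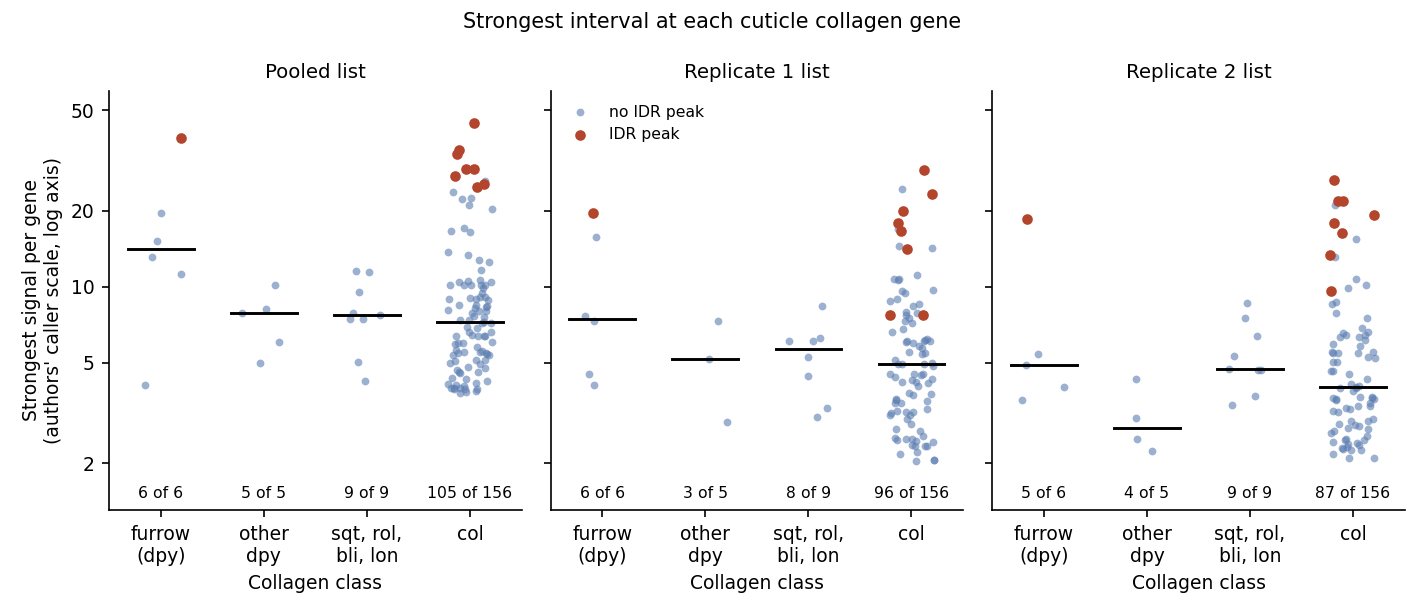
Strongest signal per gene (log axis, scale of the authors' caller) in the pooled list and in each replicate list, by collagen class, with genes that have an IDR peak in red, a line at each median and the number of genes with an interval below. Furrow genes span 4.07 to 39.03 in the pooled list, within the span of the numbered col genes (3.80 to 44.5).

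Apart from dpy-3, the furrow genes had intervals below the IDR list. The gene dpy-10, whose mutants serve as a common marker of genome editing, had a pooled signal of 19.7 at 275 bp upstream. Its replicates differed, with 15.8 in replicate 1, above the 13.6 that bounds the 1358 highest intervals of that list, and 3.996 in replicate 2. The nearest IDR summit was 109 kb from its 5′ end. The summit also lay 429 bp downstream of the 5′ end of the protein-coding gene T14B4.19. Nearby dpy-2, transcribed in the opposite direction, had 11.2 at 189 bp upstream, 7.66 in replicate 1 and 3.55 in replicate 2, the last with its summit at 408 bp upstream. A second replicate 2 interval of dpy-2, at 191 bp upstream, had 2.90. Both genes were higher in replicate 1.

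The gene dpy-7, whose promoter is a standard driver of epidermal expression, had its strongest pooled interval in a coding exon, 975 bp downstream (15.2), and a second one 235 bp upstream (11.8). Replicate 1 had the downstream interval (7.29) and none upstream, while replicate 2 had 2.94 at 245 bp upstream and its strongest interval, 4.89, in an intron. The gene dpy-8 had 13.1 in a coding exon, 982 bp downstream, and 5.09 at 92 bp upstream, with strongest values of 4.08 in replicate 1 and 5.43 in replicate 2. The gene dpy-9 had the lowest furrow signal, 4.07 at 520 bp upstream, with 4.53 in replicate 1 and no interval in replicate 2. Of the 5 furrow genes other than dpy-3, dpy-8 alone thus had its higher replicate value in replicate 2.

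Upstream furrow windows differed in the searched words. A core was in 2 of 6 windows (dpy-3 and dpy-7), a GATA word in 3 of 6 (dpy-2, dpy-3 and dpy-7), and neither in the windows of dpy-8, dpy-9 and dpy-10. The windows of dpy-2 (chrII:6714003-6714203, plus strand) and dpy-10 (chrII:6712402-6712602, minus) are printed as nearby genes with and without a word, and 30 bases of dpy-7 (chrX:7538023-7538052, minus) because they hold a GATA word and a core side by side.
dpy-2: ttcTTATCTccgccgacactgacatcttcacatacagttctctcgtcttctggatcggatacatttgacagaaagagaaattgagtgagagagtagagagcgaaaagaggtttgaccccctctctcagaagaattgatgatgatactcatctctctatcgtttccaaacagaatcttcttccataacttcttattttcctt
dpy-10: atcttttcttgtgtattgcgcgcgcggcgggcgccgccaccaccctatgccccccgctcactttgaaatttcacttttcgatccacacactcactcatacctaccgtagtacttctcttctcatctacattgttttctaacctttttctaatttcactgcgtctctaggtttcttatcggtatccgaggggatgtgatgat
dpy-7: tcttttcTTATCTccgaTAATTGggttatt

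Over all pooled collagen windows, 11.5% of 182 held a core and 15.9% a GATA word. Upstream windows held a core in 15.2% of 79 and a GATA word in 25.3%, against 21.0% and 25.8% of 8074 upstream windows of all protein-coding genes. Downstream collagen windows held each in 8.41% of 107. Upstream collagen windows were thus close to the other genes in GATA words. Their share with a core was lower, with the 21.0% of all genes inside its interval (8.91 to 24.7%). Downstream collagen windows had lower shares of both than upstream ones. They were not set beside downstream windows of all genes, and the part of base composition was not tested.

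The 5 other dpy collagens, which also give dumpy animals when mutated, each had a pooled interval whose strongest summit was downstream. Among genes with a pooled interval, this held for 59.2% of all collagens and 39.3% of all protein-coding genes. In the replicate lists it held for 2 of the 3 other dpy genes with an interval in replicate 1, and for 3 of 4 in replicate 2. Their strongest pooled signals were 10.2 for dpy-4 (451 bp), 8.14 for dpy-17 (775 bp), 7.84 for dpy-13 (804 bp), 6.02 for dpy-5 (575 bp) and 4.99 for dpy-14 (233 bp, in an intron). The gene dpy-13 also had a pooled interval of 7.79 at 78 bp upstream. As strongest values in the replicate lists, dpy-4 had 7.30 in replicate 1 and 2.50 in replicate 2, and dpy-5 had 5.18 in replicate 1 only. Those of dpy-13 were upstream, 2.90 at 2 bp in replicate 1 and 4.32 at 909 bp in replicate 2. Neither replicate list had a downstream interval at dpy-13. The genes dpy-14 (2.24) and dpy-17 (3.02) had intervals in replicate 2 only. None of the 5 reached the 13.3 to 13.6 that bound the 1358 highest intervals of the replicate lists.

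The 9 collagens named for roller, squat, blistered or long bodies all had a pooled interval and no IDR peak. The highest were sqt-3, an essential collagen, with 11.5 (199 bp downstream), and sqt-2 with 11.4 (765 bp downstream). Next were bli-2, a strut collagen of the adult cuticle, with 9.58 (692 bp), lon-3, whose loss lengthens the body, with 7.90 (689 bp), and rol-8 with 7.77 (504 bp). The strongest summit was upstream at 2 of the 9, sqt-1 with 7.46 (21 bp) and bli-6 with 7.42 (273 bp). In the replicate lists the strongest summit was downstream at 6 of the 8 with an interval in replicate 1, and at 2 of 9 in replicate 2.

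The lowest of these 9 were rol-6, whose dominant allele is the usual roller marker of transgenic worms, with 5.05 (721 bp downstream), and bli-1 with 4.25 (875 bp downstream). In the replicate lists the highest values were 8.40 for sqt-2 in replicate 1 and 8.65 for sqt-1 in replicate 2, and sqt-1 had 3.04 in replicate 1, at 955 bp downstream. Of the 9 genes, 8 had an interval in both replicates and rol-6 in replicate 2 alone (3.68). Together with the dpy genes, 20 of 20 collagens named for a phenotype had a pooled interval (Wilson lower limit 83.9%). The shares were 67.3% of numbered col genes (105 of 156) and 52.8% of all protein-coding genes. In replicate 1 it was 17 of 20, against 61.5% of numbered col genes, and in replicate 2 it was 18 of 20, against 55.8%. Both replicate lists had an interval at 15 of the 20, against 39.7% of numbered col genes and 33.8% of all genes.

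One numbered collagen without an IDR peak had a pooled signal as high as some with one. The gene col-2, a dauer collagen, had 26.2 in the pooled list at 423 bp upstream, with 10.8 in both replicates, more than the pooled 24.9 of col-103. The next were col-63 with 23.7 (715 bp upstream), col-71 with 22.6 (272 bp upstream) and col-144 with 22.3 (108 bp upstream). The pooled summits of col-2 and col-71 each also lay within 1000 bp of a 5′ end of another protein-coding gene. Both col-63 and col-144 were carried by replicate 2, with 21.1 and 15.5 there, while in replicate 1 col-63 had 5.73 and col-144 had 4.999. The nearest IDR summit to col-144, 4819 bp away, was the nearer one of col-10.

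The strongest pooled summits of col-98 and col-181 were in a coding exon. The gene col-98 had a pooled signal of 21.0 at 426 bp downstream and 24.3 in replicate 1 at the same summit, while its replicate 2 interval (6.87) had its summit at 4 bp, in an untranslated region. The gene col-181 had 17.1 at 300 bp downstream, with 11.3 in replicate 1 at 333 bp and 5.29 in replicate 2 at 263 bp. A separate replicate 1 interval in an untranslated region of col-181, 955 bp downstream, had 17.01. The others of the 10 highest were col-166 (20.3, 258 bp upstream), col-94 (16.6, 106 bp upstream), col-80 (16.4, 631 bp downstream) and col-149 (13.7, 198 bp upstream).

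The other numbered collagens singled out for a known use had few intervals, unlike the dauer collagen col-2 and the epidermal reporter gene col-10. The adult collagen col-19 had 1 interval, with 3.55 in replicate 1 at 470 bp downstream, and the adult collagen col-7 had 1, with 3.21 in replicate 2 at 951 bp upstream. The gene col-12 had 3.84 in the pooled list, near the 3.76 that is lowest there, and 3.11 in replicate 1. The transmembrane collagen col-99 had no interval in any of the 4 lists.

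The collagen genes found in the replicate lists overlapped in part. Both replicate lists had an interval at 77 collagen genes (43.8%), against 33.8% of all protein-coding genes. Of the 176 collagens, 36 had one in replicate 1 alone and 28 in replicate 2 alone, against 3425 and 3845 of all 19973 genes. At the 77, replicate 1 was higher in 46, against 3506 of the 6741 protein-coding genes with an interval in both lists. Spearman's rho between the replicates was 0.40, against 0.51 over the 6741 genes, as a description across genes that share libraries. These comparisons use the strongest interval of each gene in each list, and its summit may differ between the lists. At col-149 it was 198 bp upstream in replicate 1 and 910 bp downstream in replicate 2. An interval among the 1358 highest was found at 12 collagen genes in replicate 1 (6.82%, against 4.52%) and at 10 in replicate 2 (5.68%, against 5.11%). Both replicates had one at 6 collagen genes (3.41%, against 2.72%), which were col-10, col-38, col-42, col-107, col-172 and dpy-3. This is a count of genes and not of shared sites. At col-42 no such interval of replicate 1 overlapped that of replicate 2. At col-10 the intervals overlapped but their summits lay at the different positions given above. Replicate 1 alone had an interval among the 1358 highest at 6 collagen genes and replicate 2 alone at 4, against 359 and 476 of all 19973 genes. No interval in any list was found for 29 collagens (16.5%), against 26.3% of all genes, and all 29 were numbered col genes.

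**Figure D5:**
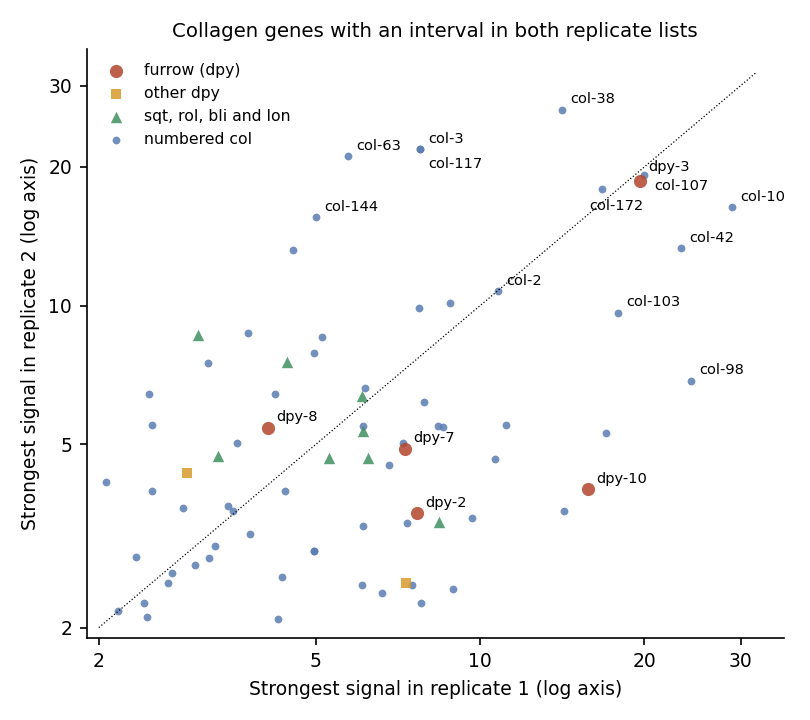
Strongest signal in replicate 1 (x, log axis) against replicate 2 (y, log axis) for the 77 cuticle collagen genes with an interval in both lists, by class, with a dotted line of equal values. The gene dpy-3 lies near the line at 19.6 and 18.6, dpy-10 and col-98 lie below it (higher in replicate 1), and col-63, col-144, col-3 and col-117 lie above it. The values of a gene may come from different summits in the replicates.

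By chromosome, pooled intervals were found at 12 of 13 collagens on III (92.3%, against 62.0% of all genes there), 22 of 30 on X (73.3%, against 56.8%), 24 of 33 on V (72.7%, against 44.6%), 23 of 32 on II (71.9%, against 50.7%), 16 of 23 on I (69.6%, against 59.2%) and 28 of 45 on IV (62.2%, against 51.1%). The collagen share was above the share of all genes on each of these 6 chromosomes. IDR peaks were at 4 of 45 collagens on IV (4.45% of all genes there), 2 of 33 on V (2.68%), 2 of 30 on X (6.48%), 1 of 32 on II (4.20%), 0 of 23 on I (5.84%) and 0 of 13 on III (6.67%).

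Genes that process collagens were also read from the lists, grouped by role. Of 19 genes of collagen maturation, 3 had an IDR peak (15.8%, 5.52 to 37.6%), against 4.74% of all protein-coding genes, and 14 a pooled interval (73.7%), against 52.8%. The all-gene IDR share lay just below the interval. The IDR peaks were at pdi-2, the disulphide isomerase subunit of prolyl 4-hydroxylase, at pdi-3, another disulphide isomerase, and at dpy-31, the protease that trims procollagens such as SQT-3. For pdi-2 the IDR signal was 64.3 at 28 bp upstream, with 57.9 in replicate 1 and 18.3 in replicate 2. For pdi-3 it was 39.1 at 688 bp upstream, with 18.3 in replicate 1 and 25.9 in replicate 2, and for dpy-31 it was 26.8 at 595 bp upstream, with 13.7 in replicate 1 and 14.1 in replicate 2. The pdi-2 peak was thus higher than any collagen peak in the same list.

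Of 18 other genes of the apical matrix, 3 had an IDR peak (16.7%, 5.84 to 39.2%), against 4.74% of all protein-coding genes, and 14 a pooled interval (77.8%), against 52.8%. Here too the all-gene IDR share lay just below the interval. They were sym-1, a secreted leucine-rich repeat protein (37.2 at 43 bp upstream), lpr-3, a lipocalin (34.4 at 143 bp upstream), and noah-1, a zona pellucida domain protein (32.2 at 499 bp upstream). Both replicates had these peaks, with 19.99 and 20.5 for sym-1 in replicates 1 and 2. Of the 4 collagens outside the cuticle, emb-9, let-2, cle-1 and mec-5, none had an IDR peak and 2 had a pooled interval. The intervals of the shares for both groups of 3 peaks overlapped that of the cuticle collagens.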

How the data were processed

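Peak lists of CEH-16-eGFP ChIP-seq from 2 biological replicates of L2 larvae were used as deposited. Per the file headers, the authors made relaxed lists of peaks and background for each replicate and for the pooled replicates, and an optimal IDR-thresholded list. The deposited lists give a signal for each interval on the scale of the authors' caller, the −log10 of a q-value and a summit offset; the q-values were not used, since all IDR peaks share 1. Names of the aligner and the caller, the filters and the IDR threshold were not given in the sources used here. The depth of reads is not known from the lists. Only the ce11 lists were used.

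Summits were compared with transcript 5′ ends of the Ensembl release 115 annotation of WBcel235 (Python 3.11.15, pandas 2.3.3, numpy 2.4.6, scipy 1.17.1), with a window of 1000 bp. In a test on simulated data, 157 of 157 planted summits within the window were recovered at their own gene. Of the summits planted beyond the window, 0 were assigned to that gene. The test compared distances without their sign, so it did not check the upstream or downstream side. Assignment to other genes was not checked either. Genes that share an interval are not independent. The members, the classes and the lists were chosen with earlier results of these data known. Named genes were those with an IDR peak, all dpy, sqt, rol, bli and lon members, the 10 numbered col genes of highest pooled signal without an IDR peak, collagens of known use, and pathway genes with an IDR peak. Alternatives changed the window, the 5′ ends, the threshold and the replicates used. The 12 alternatives on downstream and coding summits and on unique sequence were chosen after seeing the data.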

Additional observations from a re-analysis of the deposited data

How the results depend on the processing

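Of 60 alternatives over the results on collagen genes, 46 stayed within 1.5 times the count or within 1 SD between replicates, 14 moved and 0 reversed. These results are counts, a median and a percent, which have no direction of their own to reverse. The 9 collagen genes with an IDR peak (5.11%, against 4.74% of all genes) became 14 (7.95%, against 6.81%) at 2000 bp. They became 4 with IDR peaks at or above their median signal, a share then below that of all genes (2.27%, against 2.45%). The 125 genes with a pooled interval became 80 at 500 bp (45.5%, against 38.3%) and 79 with pooled intervals at or above their median signal (44.9%, against 33.7%). Their median signal of 7.61 became 8.38 at 2000 bp, 6.95 with the nearest gene only and 9.88 with the stronger intervals. The 6 genes of 176 with a top interval in both replicates became 13 with 5000 top intervals. Over all 19973 protein-coding genes the same change took 544 to 1640. The downstream share of 57.2% became 43.7% at 500 bp (against 40.8%), and the 97 genes with a coding summit became 54 (30.7%, against 13.9%) with the stronger intervals.

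With 1 replicate left out, the other replicate's own list was used. Its 1358 highest intervals then stood in for the IDR peaks, and lay at 10 to 12 collagen genes and 1 to 2 furrow genes. The gene dpy-10 had such an interval in replicate 1, and has no IDR peak. In place of the pooled list, the counts were 105 to 113 for genes with an interval and 63 to 91 for coding summits. The lower coding count, 63, was that of replicate 2 alone. The median signal was 4.14 to 4.999, on other scales than the pooled list. No paired analysis was possible because there is only 1 group. The lists hold no read counts, so a gene without an interval may still have signal below the lists' lowest values.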
